A study of Mus musculus with 11 samples.

Results

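The mitochondrial ribosomal protein genes are nuclear genes whose symbols begin with Mrpl (named for the large subunit) or Mrps (named for the small subunit). Every symbol of that form in the deposited table was taken, which gave 78 of 13734 genes, 49 of them Mrpl and 29 Mrps. Mitochondria carry ribosomes of their own, which read the messenger RNAs of the mitochondrial genome and make core subunits of the respiratory chain and ATP synthase. The ribosomal RNAs come from the mitochondrial genome, whereas every ribosomal protein is made in the cytosol and imported. In the kidney, mitochondria are especially dense in the proximal tubule and the thick ascending limb and sparser in podocytes and endothelium. A glomerular isolate can hold tubule fragments, and their part in the levels below was not tested.

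RNA-seq was made from glomeruli, the capillary filters of the kidney, isolated from male mice. The db/db mouse is homozygous for a mutation of the leptin receptor gene Lepr and becomes obese and diabetic, and puerarin is an isoflavone glucoside of kudzu root whose effect on diabetic kidney injury the study addressed. The 3 db/db puerarin libraries came from db/db mice given puerarin by gavage at 20 mg/kg per day in 5% DMSO, the 4 db/db vehicle libraries from db/db mice given 5% DMSO, and the 4 db/m vehicle libraries from sex- and age-matched littermates that carry 1 copy of the mutation and were likewise given 5% DMSO. Dosing began at 10 weeks of age and lasted 6 weeks in all 3 groups, the labels name the BKS background in 1 place and C57BL/6J in another, and they do not say whether a library came from 1 animal or a pool, so p-values measure the spread between these libraries, which may be technical.

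Library names come in 2 forms, an S number (S144, S152, S153, S184, S185) or a group tag with a plain number, and both forms occur in every group. What the forms stand for is not stated. Library totals ran from 35369703 to 44244460 counts. Levels are given as CPM, the counts of a gene scaled to a fixed library total. Xist, expressed from an inactive X chromosome, reached 528.5 CPM in db/db puerarin 2 and 819 CPM in db/db puerarin 3 but only 0.519 to 6.47 CPM elsewhere, and Ddx3y of the Y chromosome measured 3.06 and 0.909 CPM there but 50.3 to 85.2 CPM elsewhere, which goes against the male label of these 2 libraries. Lepr was at 5.07 to 11.3 CPM in every library, and since the db mutation alters splicing and does not delete the gene, its level checks nothing. Podocyte markers were abundant in all libraries (summed 12010 to 17560 CPM over 10 markers), and so were tubule markers, with loop and distal tubule markers between 1606 and 12320 CPM over 8 markers.

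The promoters of 5 members are shown because results below turn on these genes: Mrps11 had the smallest p in db/db against db/m mice, Mrpl43 the smallest p under puerarin, Mrpl32 and Mrps30 the smallest p in each direction in puerarin-treated db/db against db/m mice, and Mrps6 the smallest p between name forms. Each sequence is from RefSeq on GRCm38.p6, 5′ to 3′ on the gene's strand, and covers 250 bases before and 50 bases after the start. Capitals mark matches to 3 motifs searched on both strands: GCGC followed by 2 bases of any kind and GCGC again for NRF1, CCGGAAG for the ETS family that includes GABP, and ATGGCGGC for YY1, factors known for nuclear genes of mitochondrial proteins. Mrps11 lies at chr7:78782881-78783180 (plus strand), Mrps30 at chr13:118387203-118387502 (minus strand), Mrpl43 at chr19:45006393-45006692 (minus strand), Mrpl32 at chr13:14612988-14613287 (minus strand) and Mrps6 at chr16:92058086-92058385 (plus strand).
Mrps11: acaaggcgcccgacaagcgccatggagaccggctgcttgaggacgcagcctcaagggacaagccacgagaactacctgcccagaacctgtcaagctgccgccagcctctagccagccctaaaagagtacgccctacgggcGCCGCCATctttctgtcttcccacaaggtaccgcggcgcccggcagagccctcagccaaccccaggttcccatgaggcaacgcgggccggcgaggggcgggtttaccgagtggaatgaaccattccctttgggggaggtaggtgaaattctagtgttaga
Mrps30: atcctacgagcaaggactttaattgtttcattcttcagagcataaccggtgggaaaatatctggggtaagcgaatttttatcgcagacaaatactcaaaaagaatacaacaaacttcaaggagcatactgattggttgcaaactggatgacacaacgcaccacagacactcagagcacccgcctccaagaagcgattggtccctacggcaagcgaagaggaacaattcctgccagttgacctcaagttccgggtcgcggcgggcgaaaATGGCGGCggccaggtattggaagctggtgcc
Mrpl43: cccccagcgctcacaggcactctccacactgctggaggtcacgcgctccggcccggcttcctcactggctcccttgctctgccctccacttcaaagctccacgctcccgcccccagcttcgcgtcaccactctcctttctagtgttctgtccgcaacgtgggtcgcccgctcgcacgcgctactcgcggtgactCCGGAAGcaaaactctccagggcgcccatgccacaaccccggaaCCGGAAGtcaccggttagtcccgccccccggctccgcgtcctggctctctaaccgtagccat
Mrpl32: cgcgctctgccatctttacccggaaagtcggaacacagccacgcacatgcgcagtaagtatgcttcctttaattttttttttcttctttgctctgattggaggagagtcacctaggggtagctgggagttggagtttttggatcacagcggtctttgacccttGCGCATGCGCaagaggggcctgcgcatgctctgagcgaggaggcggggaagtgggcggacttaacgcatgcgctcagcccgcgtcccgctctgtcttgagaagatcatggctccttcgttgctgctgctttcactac
Mrps6: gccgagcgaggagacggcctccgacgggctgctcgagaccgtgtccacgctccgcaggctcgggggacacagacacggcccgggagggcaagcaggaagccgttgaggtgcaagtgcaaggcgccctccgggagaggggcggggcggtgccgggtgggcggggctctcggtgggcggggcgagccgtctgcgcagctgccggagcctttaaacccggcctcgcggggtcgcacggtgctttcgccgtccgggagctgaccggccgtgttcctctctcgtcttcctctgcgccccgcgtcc

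In these windows Mrps11 and Mrps30 each held 1 YY1 match, Mrpl43 held 2 ETS matches, Mrpl32 held 1 NRF1 match, and Mrps6 held none. Of the 78 members, 69 had a promoter in the RefSeq table. An ETS match was present in 26 of the 69 (37.7%) against 17.2% of all 10601 promoters, a YY1 match in 12 (17.4%) against 4.8%, and an NRF1 match in 14 (20.3%) against 12.6%. At least 1 of the 3 was present in 42 of the 69 member promoters (60.9%) against 30.4% of all promoters. Base composition was similar, with a median of 58% G or C in member promoters against 60.7% in all promoters and a median of 21 against 20 CG dinucleotides. A match is a description of these letters and not a site of binding.

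Members often shared a start region with another gene. In the GENCODE annotation of the same build, 18 of 78 members (23.1%) had the start of a protein-coding gene on the opposite strand, pointing away, within 1000 bases, against 9.32% of 13084 genes. Mrpl32 stands 75 bases from Psma2, a proteasome subunit gene, Mrps12 stands 172 bases from Sars2, the mitochondrial seryl-tRNA synthetase gene, and Mrpl49 stands 59 bases from Fau, a cytosolic ribosomal protein gene. The members Mrps11 and Mrpl46 are head to head, with 41 bases between their starts in the deposited table's coordinates (mm10), whereas in GENCODE the pair overlaps at the starts and so is not among the 18. In GENCODE, exons of 33 members overlap those of another gene, on the opposite strand in 28. Whether the counted transcripts overlap as well was not checked beyond Mrps11 and Mrpl46, which stand apart in the deposited coordinates. The use of strand in counting is not given, so reads cannot be told apart where counted transcripts do overlap. Mrpl43 overlaps Twnk (the mitochondrial DNA helicase), Mrps25 overlaps Nr2c2 and Mrps6 overlaps Slc5a3 (a myo-inositol transporter) on the same strand in GENCODE. Values of Mrpl43, Mrps25 and Mrps6 may carry that uncertainty.

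All 78 members were detected in all 11 libraries, and the lowest count in any library was 72, for Mrps18b. Per kilobase of the most abundant transcript, the median member stood at 18.7 CPM per kb over all libraries, against 6.40 CPM per kb for all 13734 genes. Large-subunit names had a median of 18.9 CPM per kb and small-subunit names 15.9 CPM per kb. The span from the highest to the lowest member was 54.4-fold on this per-length scale. The scale uses the counts of that 1 transcript, whereas CPM values elsewhere are summed over the transcripts of a gene. By mean summed CPM the highest member was Mrps23, at 195.8 CPM over 6 transcripts, and it stood at 31.4 CPM per kb.

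Among the highest members on the per-length scale, Mrps21 of the small subunit stood at 125.7 CPM per kb and Mrps6, also of the small subunit, at 89.8 CPM per kb. Mrpl12 stood at 66.3 CPM per kb, and its protein forms the stalk that receives translation factors. Mrpl20 and Mrpl33, both of the large subunit, stood at 53.1 CPM per kb each. At the low end were Mrps18b at 2.31, Mrpl19 at 2.66, Mrpl1 at 3.34, Mrps25 at 4.18 and Mrpl35 at 4.78 CPM per kb. The transcripts of Mrpl19, Mrpl1, Mrps25 and Mrpl35 are 5000, 3449, 6065 and 3695 bases long. Of these low members only Mrps25 (mean 25.4 CPM) lay above the member median of 24.9 CPM before division by length. The 3 Mrps18 genes encode related proteins, of which the Mrps18a protein sits in the large subunit in mammalian structures, and Mrps18a and Mrps18c stood at 15.9 and 16.0 CPM per kb, well above Mrps18b.

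Members with known special roles lay between these ends. Mrpl11, at the base of the stalk, stood at 8.54 CPM per kb, and Mrps12, at the decoding centre, at 26.1 CPM per kb. Mrpl58, whose human protein releases peptides from stalled ribosomes, stood at 11.2 CPM per kb. Mrps30, named for the small subunit but found in the large subunit in mammalian structures, stood at 13.1 CPM per kb. Mrps36, whose protein is now known as a part of the 2-oxoglutarate dehydrogenase complex and not of the ribosome, stood at 23.7 CPM per kb.

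**Figure D1:**
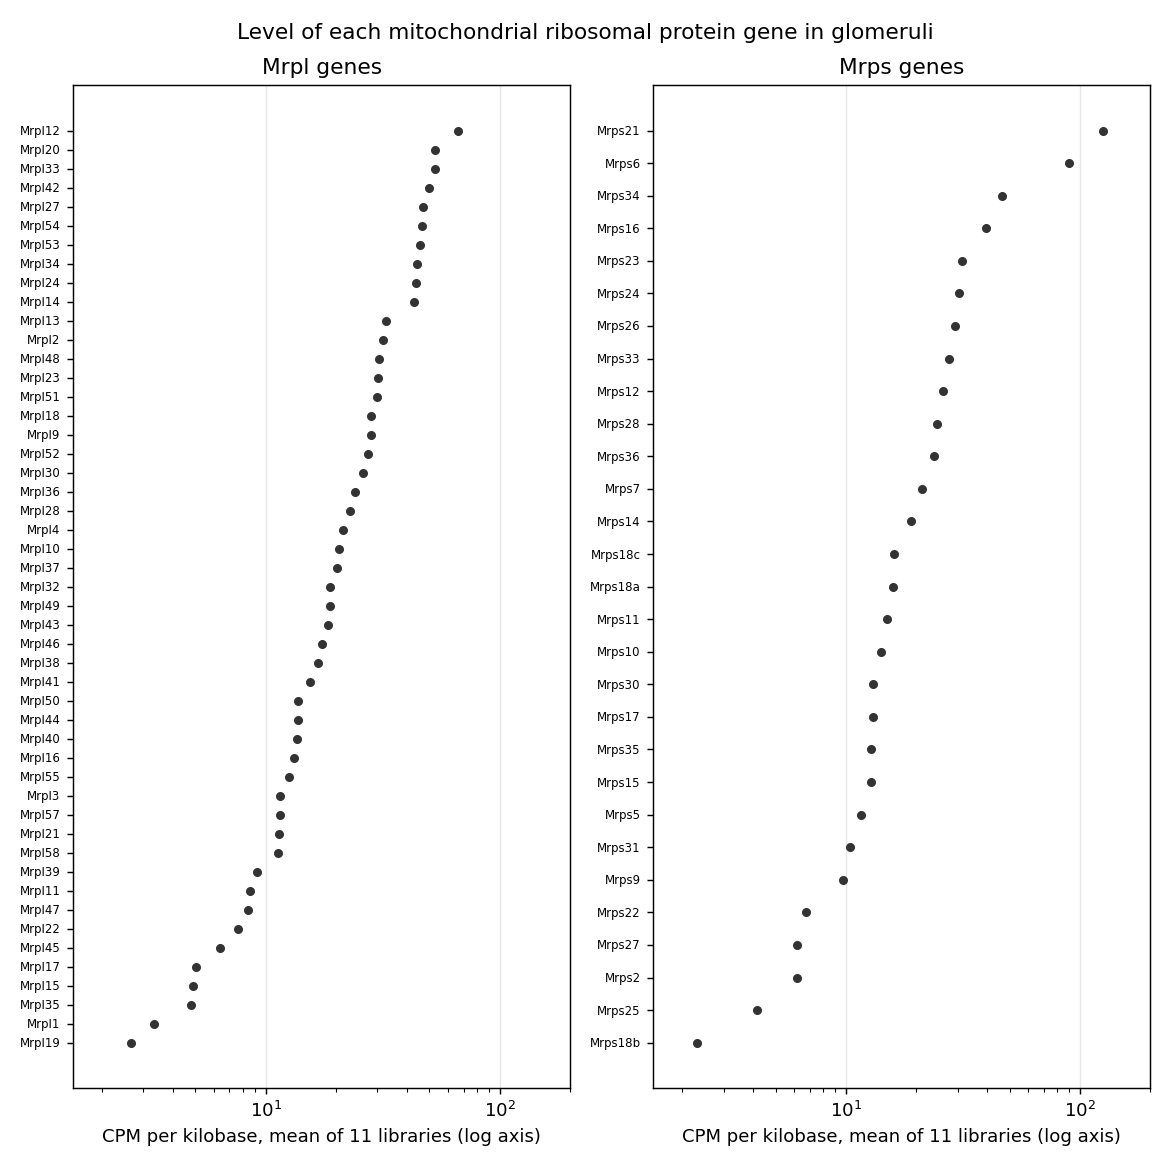
Level of each of the 78 mitochondrial ribosomal protein genes in CPM per kb of the most abundant transcript (mean of 11 libraries, log axis), large-subunit and small-subunit names apart. Points run from 2.31 (Mrps18b) to 125.7 (Mrps21), and most lie above the all-gene median of 6.40.

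The members varied together from library to library. The mean member level, on the log2 scale relative to each gene's own mean over the 11 libraries, was -0.20, 0.16 and 0.04 in db/db puerarin S144, 2 and 3, it was -0.02, 0.17, -0.15 and 0.21 in db/db vehicle S152, S153, 1 and 3, and it was 0.09, -0.25, -0.06 and 0.02 in db/m vehicle S184, S185, 2 and 3. Each of the 3 groups therefore held libraries above and below the mean of all, and the groups overlapped. The highest library stood 1.37-fold above the lowest. Large-subunit and small-subunit members moved alike, at -0.19 and -0.22 in db/db puerarin S144 and at 0.21 each in db/db vehicle 3.

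The same libraries were low for most members. In db/m vehicle S185 only 1 member lay above its own mean and in db/db vehicle 1 only 6 did, against 72 in db/db vehicle S153 and 71 in db/db vehicle 3. Of the 78 members, 57 had their lowest value in db/db puerarin S144 (24) or db/m vehicle S185 (33), the lowest place for 25.6% of all genes. Their highest value fell in db/db vehicle 3 (29) or S153 (15) for 44 members, the highest place for 22.5% of all genes. The median member had an SD of 0.20 (log2) over the 11 libraries, against 0.21 for the 11891 genes in the same range of mean levels. After the mean member level was subtracted from each library the median SD was 0.14, and it was smaller than before in 66 of 78 members. That mean is made of these same members, so some drop is built in. The share of all genes with a smaller SD after this step was not computed. Mrpl12 had the largest SD (0.41) and Mrpl9, of the large subunit, the smallest (0.09).

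Markers of the loop, distal tubule and collecting duct, but not of the proximal tubule, were lowest in the 2 libraries where members were most often lowest. The mean level of the proximal tubule, loop and distal tubule and collecting duct lists, on the same log2 scale, was -1.27, 0.43 and 0.44 in db/db puerarin S144, 2 and 3, it was -0.01, 0.17, -0.22 and 1.03 in db/db vehicle S152, S153, 1 and 3, and it was 0.36, -1.0, -0.08 and 0.16 in db/m vehicle S184, S185, 2 and 3. Summed loop and distal tubule markers were at 1606 CPM in db/db puerarin S144 and 2567 CPM in db/m vehicle S185, against 4514 to 12320 CPM in the other 9 libraries, and summed collecting duct markers were at 78.4 and 117.8 CPM against 278.8 to 619.8 CPM. Summed proximal tubule markers were at 2151 and 2968 CPM there, inside the range of the other libraries (1077 to 8129 CPM) and above db/m vehicle 2 (1483 CPM). None of the tubule markers was at 0 in any library. In db/db vehicle 1, where only 6 members were above their mean, proximal tubule markers were lowest (1077 CPM) and myeloid markers highest (674.6 CPM, against 41.0 to 164.6 CPM elsewhere). In bulk glomeruli, fewer cells of a type and less RNA per cell cannot be told apart.

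**Figure D2:**
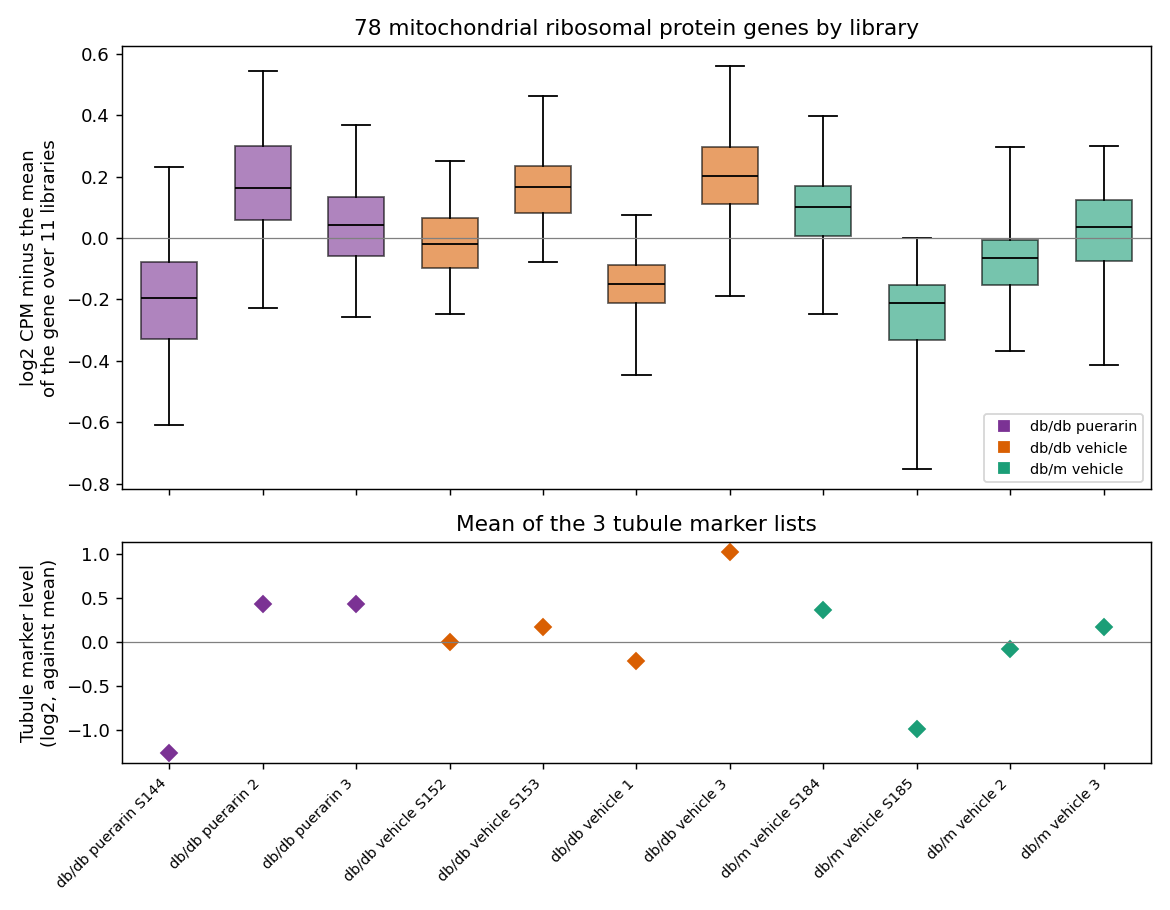
Log2 CPM of the 78 members relative to each gene's mean over the 11 libraries (boxes, quartiles, with whiskers to the extremes) and mean level of the 3 tubule marker lists (diamonds, same scale), by library and colored by group. The mean member level runs from -0.25 in db/m vehicle S185 to 0.21 in db/db vehicle 3, and the tubule level is lowest in db/db puerarin S144 (-1.27) and db/m vehicle S185 (-1.0).

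The first question was which members differed with the diabetic genotype, between db/db and db/m mice that both received vehicle. Most members were slightly higher in db/db vehicle glomeruli, but no single member passed the test. The log2 fold change (db/db vehicle over db/m vehicle) was positive for 66 of 78 members (84.6%) against 53.5% of all genes. Its median was 0.11 against 0.02 over all genes, and it ran from -0.19 (Mrps30) to 0.35 (Mrps11). Large-subunit names had a median of 0.10 and small-subunit names 0.12.

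By edgeR's quasi-likelihood test, 0 of 78 members were called at a Benjamini-Hochberg adjusted p under 0.05, where 0.0437% of all genes were. DESeq2 called 0 members, where it called 290 of all 13734 genes. At an unadjusted p under 0.05, 2 members were higher (Mrps11 and Mrps25; 5.50% of all genes) and 0 lower (4.83% of all genes), shares below those of all genes. This count was 13 when db/db vehicle 1 was left out and 5 when db/m vehicle S184 was. It was 1 when S152, S153, S185 or puerarin 2 was left out, and 0 when db/db vehicle 3 or db/m vehicle 2 was. No share of all genes at that p was computed for these refits, so their counts have no background. Genes called at an adjusted p under 0.05 rose from 6 to 82 once db/db vehicle 1 was dropped. Dropping S184 took them to 0. In 0 members did the groups stand apart without overlap, where 2.48% of all genes stood apart in each direction. The 95% interval of the fold lay within 1.5-fold either way for 70 members and within 2-fold for all 78.

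Mrps11, a protein of the small-subunit platform, had 16.1, 17.6, 14.5 and 19.6 CPM in db/db vehicle S152, S153, 1 and 3, against 13.2, 12.4, 11.9 and 15.9 CPM in db/m vehicle S184, S185, 2 and 3. Only db/m vehicle 3 reached into the db/db range. The means were 16.96 ± 2.19 CPM in db/db vehicle and 13.3 ± 1.77 CPM in db/m vehicle (SD, n = 4 each), and the log2 fold change was 0.35 (SE 0.13, adjusted p = 0.394 by edgeR). Its head-to-head partner Mrpl46, of the large subunit, had 18.2, 18.7, 15.9 and 20.5 CPM in db/db vehicle against 22.2, 15.3, 16.1 and 19.1 CPM in db/m vehicle, a log2 fold change of 0.01 (SE 0.15, adjusted p = 0.991 by edgeR). The 2 genes thus differed in their estimates although their starts adjoin, and the difference between them was not tested.

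Mrps25, of the small subunit, had 25.1, 28.4, 26.1 and 28.3 CPM in db/db vehicle libraries, against 22.7, 21.8, 25.1 and 24.9 CPM in db/m vehicle libraries. Its ranges met at 25.1 CPM, and its log2 fold change was 0.19 (SE 0.08, adjusted p = 0.462 by edgeR). Mrpl45, whose protein helps anchor the ribosome to the inner membrane, had a log2 fold change of 0.26 (SE 0.12, adjusted p = 0.487 by edgeR). Mrps6 had 0.25 (SE 0.14) and Mrpl12 had 0.32 with the widest interval of the large-subunit names, from -0.24 to 0.88.

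Mrps30 was the member with the lowest estimate. It had 19.7, 22.5, 19.9 and 18.5 CPM in db/db vehicle libraries, against 24.6, 19.9, 23.1 and 24.6 CPM in db/m vehicle libraries, where S185 lay inside the db/db range. Its log2 fold change was -0.19 (SE 0.10, adjusted p = 0.549 by edgeR). The other negative estimates with the smallest p were small, at -0.07 for Mrps12, -0.09 for Mrpl52 and -0.08 for Mrps14, and all 3 intervals spanned 0.

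The positive median moved with the libraries included. It was 0.03 when db/db vehicle S153 was left out, 0.07 when db/db vehicle 3 was left out and 0.19 when db/db vehicle 1 was left out, and leaving out db/m vehicle S185 or S184 gave 0.04 and 0.17. When the tubule level entered the fit as a term, the median was 0.01 and 45 of 78 members were positive. Without db/db puerarin S144 and db/m vehicle S185, the libraries of lowest mean tubule level, it was 0.03 with 48 members positive.

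**Figure D3:**
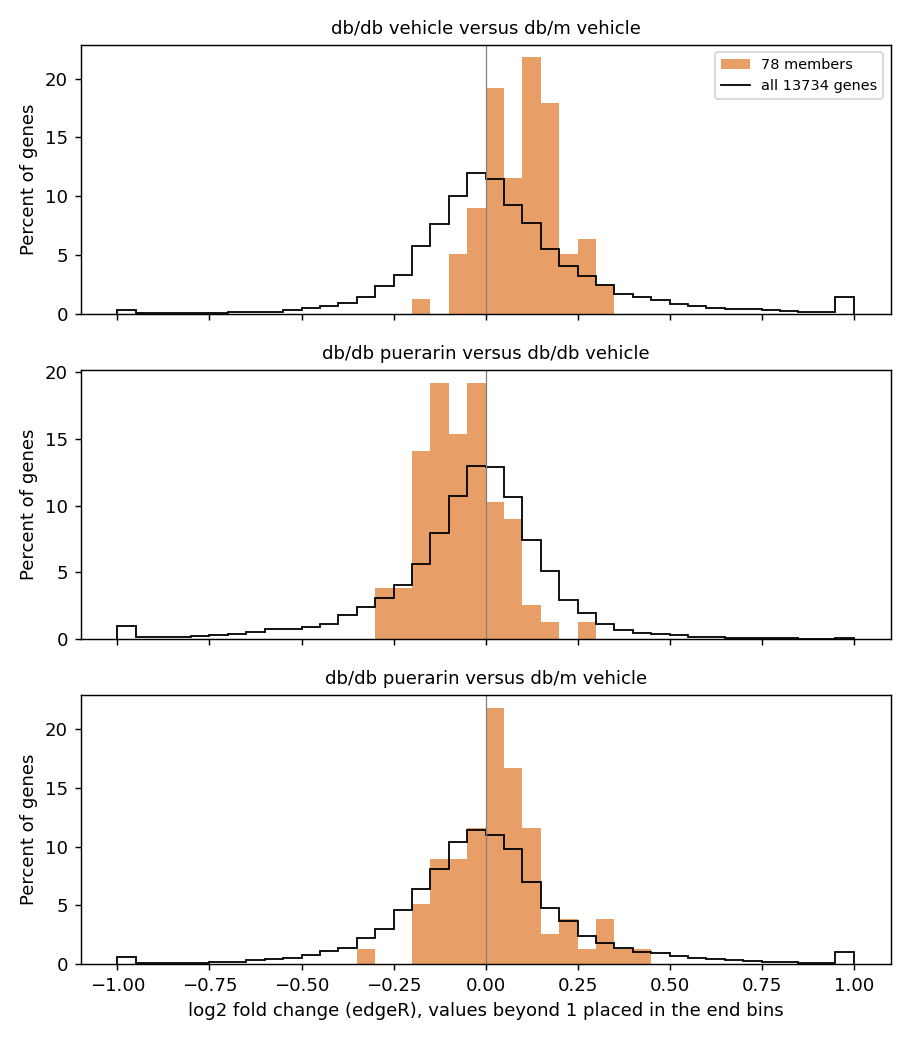
Distribution of log2 fold changes of the 78 members (bars, percent of members) and of all 13734 genes (line, percent of genes) in db/db vehicle over db/m vehicle, db/db puerarin over db/db vehicle and db/db puerarin over db/m vehicle. The member medians are 0.11, -0.08 and 0.02, against 0.02, -0.02 and -0.01 for all genes.

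Puerarin-treated db/db mice were compared with vehicle-treated db/db mice to ask what the treatment went with. The members were slightly lower on balance and none passed the test. The log2 fold change (puerarin over vehicle) was negative for 59 and positive for 19 of 78 members (24.4% positive, against 44.7% of all genes). The median was -0.08 against -0.02 over all genes, with members from -0.27 (Mrpl43) to 0.27 (Mrpl32). This comparison and the one with db/m mice share libraries with each other, so their values are given side by side and not combined.

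By edgeR's quasi-likelihood test 0 of 78 members were called, where 0% of all genes were. DESeq2 called 0 members, where it called 15 of all 13734 genes. At an unadjusted p under 0.05, 0 members were higher (2.02% of all genes) and 1, Mrpl43, was lower (2.19% of all genes). Leaving out db/db vehicle 1 gave 5 members in all and leaving out db/m vehicle 3 gave 2. The share of all genes at that p was not computed for these fits, and 0 genes of all were called in either. Groups stood apart without overlap for 1 member in each direction, Mrpl32 higher (1.51% of all genes) and Mrpl43 lower (1.72% of all genes), which is near the background. The 95% interval lay within 1.5-fold either way for 69 members.

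Mrpl43, a large-subunit protein without a bacterial counterpart, had 18.0, 21.4 and 21.6 CPM in db/db puerarin S144, 2 and 3, against 23.2, 24.4, 23.5 and 25.3 CPM in db/db vehicle S152, S153, 1 and 3. All puerarin libraries lay below all vehicle libraries. The means were 20.3 ± 2.02 CPM (SD, n = 3) in puerarin and 24.1 ± 0.919 CPM (SD, n = 4) in vehicle libraries, and the log2 fold change was -0.27 (SE 0.10, adjusted p = 0.967 by edgeR). Twnk, which overlaps Mrpl43 in GENCODE, had a log2 fold change of 0.13 (SE 0.15).

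Mrpl32, a large-subunit protein whose import form is cut by the mitochondrial m-AAA protease in yeast and mouse, had 15.6, 19.4 and 15.9 CPM in puerarin libraries against 15.4, 14.2, 12.9 and 14.3 CPM in db/db vehicle libraries. The groups were apart, but S144 and S152 differed only in the third digit. The log2 fold change was 0.27 (SE 0.12, adjusted p = 0.967 by edgeR). Psma2, 75 bases from it, had a log2 fold change of 0.07 (SE 0.14). Mrpl33, of the large subunit, had 0.20 (SE 0.16), Mrps33, of the small subunit, 0.15 (SE 0.12) and Mrps18c 0.15 (SE 0.19). Among members with negative estimates, Mrps6 had -0.23 (SE 0.15), Mrpl45 -0.19 (SE 0.13) and Mrpl39, of the large subunit, -0.19 (SE 0.11).

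The 2 name forms gave opposite signs in this comparison, with 3 members positive in both (3.85%, against 22.8% of all genes) and 19 negative in both (27.4% of all genes). Among S-number libraries, where puerarin is S144 alone, the median difference in log2 CPM was -0.25 and 6 of 78 members were positive. Among group-tag libraries (puerarin 2 and 3 against vehicle 1 and 3) it was 0.06 and 56 members were positive. Mrpl12 had 39.9 CPM in puerarin S144 against 60.6 and 80.8 CPM in vehicle S152 and S153, but 75.7 and 70.2 CPM in puerarin 2 and 3 against 51.8 and 86.9 CPM in vehicle 1 and 3. Mrps21 had 42.9 CPM in puerarin S144 against 44.8 and 68.9 CPM in vehicle S152 and S153, and 59.1 and 49.6 CPM in puerarin 2 and 3 against 39.6 and 66.2 CPM in vehicle 1 and 3.

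The difference between the forms was itself tested, with the spread pooled over all groups because 1 puerarin library carries an S number. That library, S144, had the lowest tubule level (-1.27), and both group-tag puerarin libraries had high Xist. Name form, apparent sex and tubule level of the puerarin libraries therefore cannot be told apart in this contrast. By edgeR's quasi-likelihood test 0 of 78 members were called, where 0.00728% of all genes were, and 5 had an unadjusted p under 0.05 (3.32% of all genes). The effect in group-tag libraries minus that in S-number libraries had a median of 0.33 and was positive for 72 members. The smallest p was that of Mrpl52, of the large subunit (log2 difference 0.78, unadjusted p = 0.0114, adjusted p = 0.962 by edgeR). The same test for the genotype comparison called 0 members (0.0218% of all genes), and 0 had an unadjusted p under 0.05 (3.33% of all genes). In the genotype comparison the form medians had the same sign, 0.15 among S-number and 0.06 among group-tag libraries, and 51 members (65.4%) were positive in both forms, against 33.8% of all genes.

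The puerarin median also turned with the libraries included. Without db/db puerarin S144 it was 0.02 with 46 of 78 members positive, and with the tubule level in the fit it was 0.06 with 54 positive. Without the libraries labelled db/db puerarin 2 and 3, whose Xist was high, it was -0.22 with 5 positive, which leaves S144 as the only treated library.

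**Figure D4:**
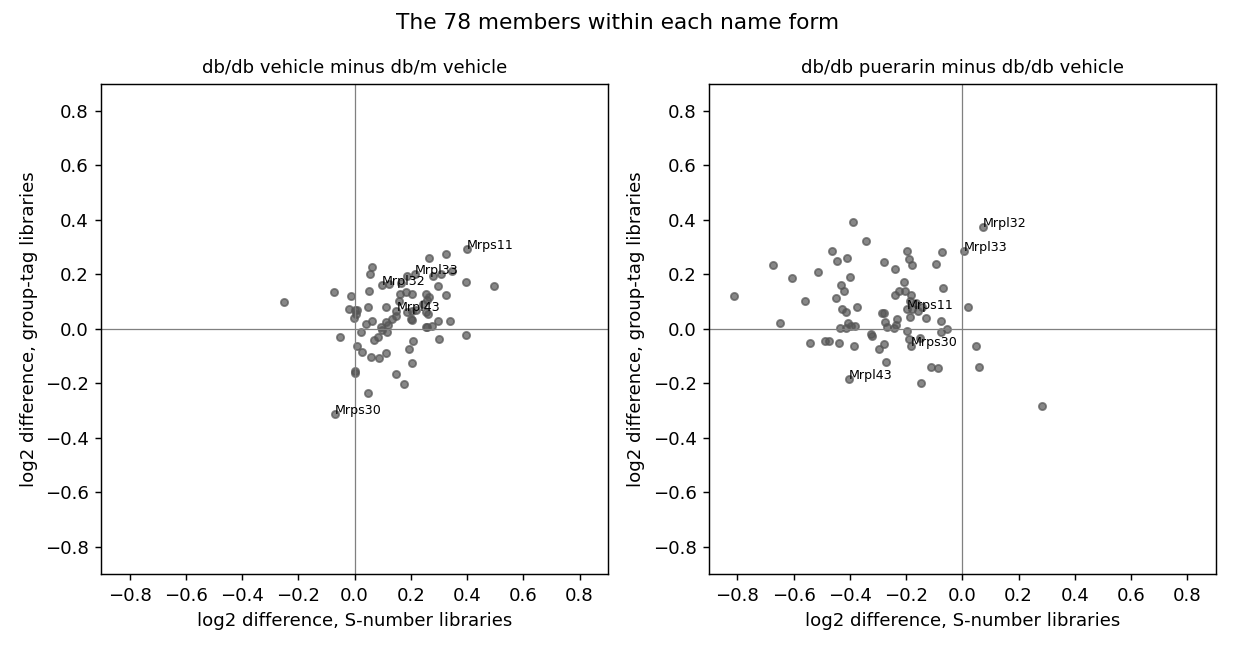
Difference in log2 CPM of each member within S-number libraries (horizontal axis) and within group-tag libraries (vertical axis), for db/db vehicle minus db/m vehicle and for db/db puerarin minus db/db vehicle. In the genotype panel 51 members are positive in both forms, and in the puerarin panel most lie left of 0 (72 of 78) with 56 above 0.

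Puerarin-treated db/db mice were also set against db/m mice on vehicle. The log2 fold change (puerarin db/db over db/m) was positive for 50 of 78 members (64.1%, against 47.7% of all genes), with a median of 0.02 against -0.01 and members from -0.32 (Mrps30) to 0.40 (Mrpl33). By edgeR's quasi-likelihood test 0 members were called, where 0.182% of all genes were. DESeq2 called 0 members, where it called 297 of all 13734 genes. At an unadjusted p under 0.05, 2 members were higher (Mrpl32 and Mrpl33; 5.37% of all genes) and 1 was lower (Mrps30; 4.89% of all genes). These 3 became 7 when puerarin S144 was left out, 6 when db/m vehicle S184 was and 5 when db/db vehicle 1 was. They became 2 when S185, puerarin 2 or db/m vehicle 3 was left out. The share of all genes at that p was not computed for these fits. All genes called numbered 6, 0 and 74 without puerarin S144, db/m vehicle S184 and db/db vehicle 1, against 25 with all libraries. Mrpl32, Mrpl33 and Mrps30 also had groups without overlap, 2 higher (3.73% of all genes) and 1 lower (3.92% of all genes). These shares are near or below the background. The 95% interval lay within 1.5-fold for 64 members. The small positive median turned to -0.05 when puerarin 2 was left out, to -0.02 when db/m vehicle S185 was left out and to -0.14 when both libraries of high Xist were.

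Mrpl32 had 15.6, 19.4 and 15.9 CPM in puerarin db/db libraries against 14.0, 13.6, 13.3 and 11.04 CPM in db/m vehicle libraries. All puerarin libraries were above all db/m libraries, and the log2 fold change was 0.40 (SE 0.12, adjusted p = 0.279 by edgeR). Mrpl33 had 25.8, 35.6 and 24.2 CPM in puerarin libraries against 23.9, 20.5, 23.8 and 18.3 CPM in db/m vehicle libraries, a log2 fold change of 0.40 (SE 0.16, adjusted p = 0.400 by edgeR). The puerarin 2 library was the highest for both genes.

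Mrps30 had 18.6, 18.6 and 18.1 CPM in puerarin libraries against 24.6, 19.9, 23.1 and 24.6 CPM in db/m vehicle libraries. The puerarin libraries lay close together and below every db/m library, and the log2 fold change was -0.32 (SE 0.11, adjusted p = 0.318 by edgeR). Its group means were 18.4 ± 0.279 CPM (SD, n = 3) in db/db puerarin, 20.2 ± 1.68 CPM (SD, n = 4) in db/db vehicle and 23.1 ± 2.25 CPM (SD, n = 4) in db/m vehicle. Mrps11 had a log2 fold change of 0.31 (adjusted p = 0.505 by edgeR), which shares the db/m libraries with its genotype value of 0.35, and Mrpl13, of the large subunit, had 0.33 (adjusted p = 0.541 by edgeR). After Mrps30, the negative estimates with the smallest p were -0.17 for Mrpl43, -0.17 for Mrps12 and -0.20 for Mrpl37.

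**Figure D5:**
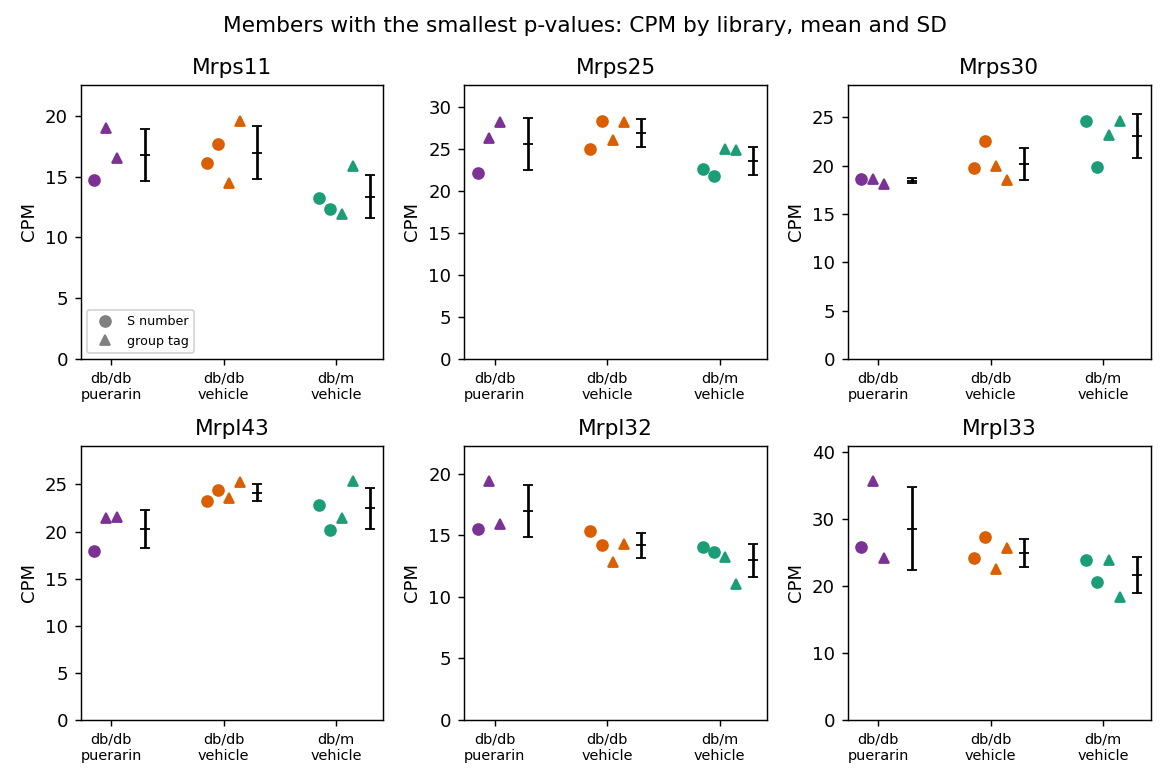
CPM in each of the 11 libraries for 6 members, by group, with circles for S-number and triangles for group-tag libraries and bars for the group mean and SD. For Mrpl43 all puerarin libraries lie below all db/db vehicle libraries, and for Mrps30 the puerarin libraries (18.1 to 18.6 CPM) lie below all db/m libraries, while Mrps25 and Mrps11 overlap between groups.

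Between the name forms, with group in the fit, the members were slightly higher in group-tag libraries and 0 of 78 were called by edgeR's quasi-likelihood test, where 6.97% of all genes were. The log2 fold change (group tag over S number) had a median of 0.08 against -0.02 over all genes, and it was positive for 55 members (70.5%, against 46.3% of all genes). At an unadjusted p under 0.05, 5 members were higher (14.2% of all genes) and 0 lower (11.2% of all genes). Leaving out db/db vehicle 1, S153 or S184 gave 16, 10 and 8 members. Leaving out S144, S152, S185 or db/db vehicle 3 gave 2, and leaving out db/m vehicle 3 gave 3. The share of all genes at that p was not computed with a library left out, so these counts have no background. All genes called at an adjusted p under 0.05 numbered 1791, 481 and 1492 without db/db vehicle 1, S153 and S184, against 957 with all libraries. The forms stood apart without overlap for 0 members, where 5.13% of all genes stood apart higher and 1.58% lower. DESeq2 called 2 members, Mrpl37 and Mrps6, where it called 1885 of all 13734 genes.

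Mrps6 had 66.4 to 101 CPM in the 6 group-tag libraries against 49.0 to 70.5 CPM in the 5 S-number libraries, with the lowest values in db/db puerarin S144 (49.0) and db/m vehicle S185 (50.3). Its log2 fold change was 0.40 (SE 0.12, adjusted p = 0.0758 by edgeR). That of Slc5a3, which shares exon sequence with Mrps6 in GENCODE, was 0.42 (SE 0.14, adjusted p = 0.110 by edgeR). Mrpl37, of the large subunit, had 26.9 to 41.2 CPM in the group-tag libraries against 22.2 to 31.4 CPM in the S-number libraries. The forms overlapped, since db/db vehicle 1 (26.9 CPM) lay below db/db vehicle S153 (29.5 CPM) and db/m vehicle S184 (31.4 CPM), and its log2 fold change was 0.38 (SE 0.12, adjusted p = 0.0962 by edgeR). Mrpl45 (0.27), Mrpl21 (0.22) and Mrps27 (0.28) were the other 3, and Mrps27 is a small-subunit protein with pentatricopeptide repeats that bind RNA. The negative estimates with the smallest p were -0.13 for Mrpl24, -0.15 for Mrps31, -0.14 for Mrps22 and -0.10 for Mrps33. With the tubule level in the fit the median was -0.10 and 15 members were positive, so the sign of this comparison turned. Leaving out db/db puerarin S144 and db/m vehicle S185, the libraries of lowest tubule level, gave a median of -0.08 with 17 members positive.

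Genes that build, supply and run the mitochondrial ribosome were read from 6 further lists with 76 measured genes. None of the 76 was called by edgeR's quasi-likelihood test in db/db vehicle against db/m vehicle, in puerarin against vehicle or in puerarin db/db against db/m (0.0437%, 0% and 0.182% of all genes). At an unadjusted p under 0.05, 1 was higher and 2 were lower in the first comparison (5.50% and 4.83% of all genes). In the second, 1 was higher and 3 were lower (2.02% and 2.19%). In the third, 0 were higher and 4 lower (5.37% and 4.89%). The higher counts lie below that background, most clearly in the third comparison. The lower count lies below it in the first comparison, somewhat above it in the second and near it in the third. The median log2 fold change over the 76 was 0.03, -0.07 and -0.05 in these comparisons, beside 0.11, -0.08 and 0.02 for the members.

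The 5 measured ribosomal proteins under other names had a median of 0.11 in db/db vehicle over db/m vehicle, close to the members, and Aurkaip1 among them had 0.24 (adjusted p = 0.471 by edgeR). The 22 genes of ribosomal RNA modification and assembly had -0.04, with 9 positive, and Dhx30, an RNA helicase of ribosome assembly, had -0.18 (adjusted p = 0.437 by edgeR). The 12 translation factors had 0.05, the 19 aminoacyl-tRNA synthetases 0.02, the 10 transcription and messenger RNA factors 0.06 and the 8 biogenesis regulators -0.06. Polrmt, the mitochondrial RNA polymerase, had 15.9, 17.3, 16.9 and 20.4 CPM in db/db vehicle libraries against 21.9, 20.1, 20.8 and 21.3 CPM in db/m vehicle libraries, a log2 fold change of -0.26 (SE 0.10, adjusted p = 0.403 by edgeR). Only db/db vehicle 3 reached the db/m range.

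Under puerarin against vehicle in db/db mice, Tufm, the elongation factor that brings aminoacyl-tRNA to the ribosome, had 70.0, 91.2 and 100.6 CPM in puerarin libraries against 96.0, 104.3, 99.8 and 146.1 CPM in vehicle libraries, a log2 fold change of -0.41 (SE 0.16, adjusted p = 0.967 by edgeR). Mettl17, an assembly factor of the small subunit, had 0.39 and Mpv17l2, which also acts in ribosome assembly, had -0.34. For Dhx30, puerarin db/db libraries had 128.7, 131.4 and 132.8 CPM against 146.1, 156.3, 153.7 and 174.9 CPM in db/m vehicle libraries. The log2 fold change was -0.28 (SE 0.08, adjusted p = 0.256 by edgeR). All puerarin libraries lay below every db/m library, which was so for 3 of the 76 genes and for 3.92% of all genes, so near the background.

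Between the name forms 2 of the 76 genes were called, both higher in group-tag libraries, where 5.65% of all genes were called higher. Guf1, a translation factor of the LepA family, rose by 0.56 on the log2 scale (SE 0.12, adjusted p = 0.0230 by edgeR) and had 29.6 to 37.8 CPM in group-tag libraries against 18.5 to 25.4 CPM in S-number libraries. Ppargc1a, the coactivator PGC-1α that drives mitochondrial biogenesis, rose by 1.26 (SE 0.33, adjusted p = 0.0486 by edgeR). It had 107.4 and 126.5 CPM in puerarin 2 and 3, 78.3 and 169.5 CPM in db/db vehicle 1 and 3 and 92.9 and 90.2 CPM in db/m vehicle 2 and 3, against 21.4 CPM in puerarin S144, 59.8 and 61.5 CPM in db/db vehicle S152 and S153 and 73.3 and 29.9 CPM in db/m vehicle S184 and S185. Its lowest libraries, S144 and S185, are also those with the lowest loop, distal tubule and collecting duct markers, and the part of tubule RNA in this difference was not tested.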

How the data were processed

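The deposited table holds whole-number read counts for 22320 RefSeq transcripts, which the authors made with BWA and limma on mm10, per the submitters' processing notes. The counting rule and use of strand are not given in the sources used here. Per library, the authors' deposited log2 values differ from log2 counts by 1 constant in each library and were not used in the tests. Of 15 count columns, 4 matched no sample and were not used. Blank cells (13) were set to 0 and 50 symbols turned into dates were restored.

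Counts were summed per symbol, so reads shared by transcripts of the 13 members with more than 1 transcript can be counted more than once. All members passed the filter of at least 1 count in 3 libraries. CPM are scaled by TMM factors. The main test was edgeR 4.0.16 (glmQLFit, glmQLFTest) in R 4.3.3 over 13734 genes and 11 libraries with terms for group and name form, two-sided, with Benjamini-Hochberg adjustment over all genes. DESeq2 1.42.0 was an alternative, and limma 3.58.1 was loaded with edgeR. The script was tested on simulated data. Other settings were DESeq2 size factors in edgeR, the filter filterByExpr (which removed 0 genes), the highest transcript of each gene, each library left out in turn, the tubule level as a term, no name form term, only the groups compared, a replicate block and, chosen after seeing the data, leaving out pairs of libraries (high Xist, lowest tubule level).

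Members were named by rule: those with the smallest p per direction and comparison (up to 6), the 5 highest and 5 lowest per length, and Mrps18a, Mrps18b, Mrps18c, Mrps30, Mrps36, Mrpl12, Mrpl11, Mrps12 and Mrpl58. Mrpl46, Mrpl9, Mrps23 and the neighbouring genes named with them were picked with their values in view. The members and all gene lists were chosen with earlier results of these data known. Promoters are RefSeq sequence on GRCm38.p6, and overlaps come from GENCODE on the same build. Intervals cover the spread between libraries.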

Additional observations from a re-analysis of the deposited data

Results flagged for a closer look

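Outliers were sought in 62 groups of 4 libraries (31 named members in each vehicle group) and in 8 groups of member and tubule levels. In 5 of these 70 groups, all of single members, 1 library stood far from the other 3. Chance alone flags about 1 in 20 groups, so a number near this one is what such a check gives without any effect. Mrps14 was at 47.6 CPM in db/db vehicle 1, against 67.4 to 70.3 CPM in the other db/db vehicle libraries. Mrps18c was at 6.71 CPM in db/db vehicle 1, against 8.12 to 8.43 CPM in the others, and at 10.0 CPM in db/m vehicle S184, against 6.91 to 7.06 CPM in the other db/m vehicle libraries. Mrps33 was at 47.2 CPM in db/m vehicle S184, against 40.7 to 41.5 CPM in the others. Mrps6 was at 101 CPM in db/db vehicle 3, against 66.4 to 70.5 CPM in the others, and that library also had the highest tubule level.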

How the results depend on the processing

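Over 20 settings (leaving aside filterByExpr, which removed 0 genes and so tests nothing), 602 of 616 values of single members kept their sign and their side of the threshold, 8 turned sign and 6 passed it. The member median turned sign in 9 of 77 cases. No member was called in the 3 group comparisons under any setting. With each library left out in turn, the member median ran from 0.03 to 0.19 for db/db vehicle over db/m vehicle, from -0.16 to 0.02 for puerarin over vehicle (positive only without puerarin S144), from -0.05 to 0.14 for puerarin db/db over db/m and from -0.0046 to 0.13 for group tag over S number, where the members called ran from 0 to 2 (Mrpl21 and Mrps6 when db/m vehicle S184 was left out, Mrpl37 and Mrps6 when db/db vehicle 1 was). All genes called between name forms numbered 1492 without db/m vehicle S184 and 1791 without db/db vehicle 1. DESeq2 called 2 members between name forms, where it called 1885 of all genes. With the tubule level as a term the name-form median was -0.10. Without the libraries of high Xist the puerarin db/db over db/m median was -0.14. The causes were not tested.

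Some single members turned sign. In db/db vehicle over db/m vehicle, Mrpl52 was 0.012 and Mrps14 0.12 with a replicate block, and leaving out 1 library took Mrps14 to 0.053 (no db/db vehicle 1) and 0.032 (no db/m vehicle 2). In puerarin over vehicle, Mrps18c was -0.0086 with the block, between -0.094 (without puerarin 2) and 0.29 (without puerarin S144) with 1 library left out and -0.10 without the libraries of high Xist, where Mrps33 was -0.033.

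Whether equal library numbers mark a pairing is not known. Deviations of same-numbered libraries correlated at -0.11 to 0.06. Each deviation was taken from a mean of only 2 libraries, so these values cannot decide it. With the replicate block 0 members were called, the medians were 0.19, -0.16 and 0.01, and all genes called numbered 56, 0 and 49, against 6, 0 and 25. DESeq2 called 290, 15 and 297 genes, and 1885 against 957 between name forms. With the tubule level the numbers were 77, 0, 301 and 1190, without a name form term 1, 0 and 5, and with only the groups compared 2, 0 and 5. Groups of 3 or 4 libraries, and intervals that pass 1.5-fold for some members, limit what single members can show.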
